A study of Homo sapiens with 8 samples.

Results

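The comparison described here is that of phenformin with no compound in HT1080 cells kept in normal growth medium, as the log2 value on the phenformin array minus that on the control array. It covers the probe sets that reached log2 6 on at least 1 of the 8 arrays of the series. These were 15503 of 54675 probe sets on the array, after 62 control probe sets had been set aside, and by their brightest probe set they stood for 8429 of 19775 genes named on it. The lowest peak value among the probe sets kept was 6.0001, and the highest among those not kept was 5.9999.

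The study set out to compare compound C, a kinase inhibitor, with versipelostatin and phenformin, which were known to block the unfolded protein response (UPR) of glucose-starved cancer cells. HT1080, a human fibrosarcoma line, was hybridised to Affymetrix U133 Plus 2.0 arrays, 1 array for each of 8 conditions. In normal growth medium, RPMI medium with glucose and serum, the cells received 100 µM phenformin, 10 µM versipelostatin, 10 µM compound C or, as control, no compound, for 18 h. In medium with 10 mM 2-deoxy-D-glucose (2DG), a glucose analogue that blocks glycolysis and protein glycosylation, they received the same compounds at the same doses for 18 h, or 2DG alone. The control label names no vehicle, and phenformin was dissolved in water by the study's methods, while the other compounds were in dimethyl sulfoxide. With 1 array a condition, no difference below has a replicate check, an error or a p-value, and "higher" or "lower" in a count means a difference of at least 2-fold, which is 1 on the log2 scale.

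Phenformin is a biguanide, a class of antidiabetic drugs that inhibit complex I of the mitochondrial respiratory chain. A cell whose respiration is blocked makes less ATP, oxidises NADH more slowly and relies more on glycolysis, and the energy sensor AMPK is then switched on. Mitochondrial stress can also be relayed to the translation factor eIF2α, which slows protein synthesis in general and lets the transcription factor ATF4 be made. ATF4 is equally reached from the endoplasmic reticulum (ER) through the sensor kinase PERK, a branch of the UPR, and it drives genes for amino acid synthesis and transport.

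The values are the deposited log2 intensities, made by robust multi-array averaging (RMA). The arrays had medians of 3.12 to 3.28 over all probe sets, with 3.16 on both the phenformin and the control array, and over the probe sets kept the medians were 7.22 on the phenformin array and 7.26 on the control array. The spiked poly-A transcripts read 0.28 higher on the phenformin array than on the control array, and the hybridisation controls 0.14 higher. ACTB was brighter at its 3′ than at its 5′ end by 0.92 on the phenformin array and 0.91 on the control array. Scaling on the poly-A transcripts lowers each difference between these arrays by 0.28, so that any positive value or median under 0.28 turns negative with that scaling. Of 10 mesenchymal markers, 8 were expressed, among them VIM at 13.65 with phenformin and 13.50 in control. SPARC was at 11.28 with phenformin and 11.03 in control. The epithelial markers EPCAM (2.01 on each array) and CDH1 (2.33 with phenformin, 2.12 in control) and the leukocyte marker PTPRC (2.28 with phenformin, 2.02 in control) lay below the median of the arrays, as did 4 other epithelial and 3 other blood cell markers, and CLDN4, an epithelial claudin, was near it at 3.04 with phenformin and 3.19 in control. Of the epithelial keratins KRT8 and KRT18 were above it, KRT8 at 8.79 with phenformin and 8.39 in control and KRT18 at 10.35 with phenformin and 10.68 in control. The globin HBB, of the blood list, was also above it, at 5.53 with phenformin and 5.11 in control. The log2 levels were also summed over the markers of each list, expressed or not. For the mesenchymal list the sums were 91.7 with phenformin and 85.4 in control. They were 36.5 with phenformin and 36.2 in control for the epithelial list, and 15.6 with phenformin and 14.8 in control for the blood list. The largest part of the mesenchymal gap came from FN1, at 10.70 with phenformin and 7.16 in control. CALD1, of the same list, was below control, at 7.14 with phenformin and 7.46 in control. Such values are per unit of labelled RNA, so that fewer cells of a kind and less RNA per cell cannot be told apart.

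The difference between the phenformin and the control array had a median of −0.04 and a median absolute deviation of 0.298, the 5th and 95th percentiles were −0.86 and 0.80, and 44.9% of the probe sets were within 1.2-fold of control. With phenformin 426 probe sets were higher (2.75% of those kept) and 479 were lower (3.09%). Scaling on the poly-A transcripts moved the median of all probe sets to −0.32 and gave 193 higher and 1259 lower. Larger differences lay mostly on the side of higher signal: 43 of the higher probe sets differed at least 4-fold and 8 at least 8-fold, against 15 and 2 of the lower ones. The higher probe sets had a median level of 7.30 with phenformin and 5.93 in control, and the lower ones 5.84 with phenformin and 7.14 in control. By gene, 224 were higher (2.66% of the genes measured) and 183 lower (2.17%), and these shares are the background for the counts in gene lists below. The median over all genes was −0.03. The plot of difference against level shows the called genes at all levels but the very brightest.

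**Figure D1:**
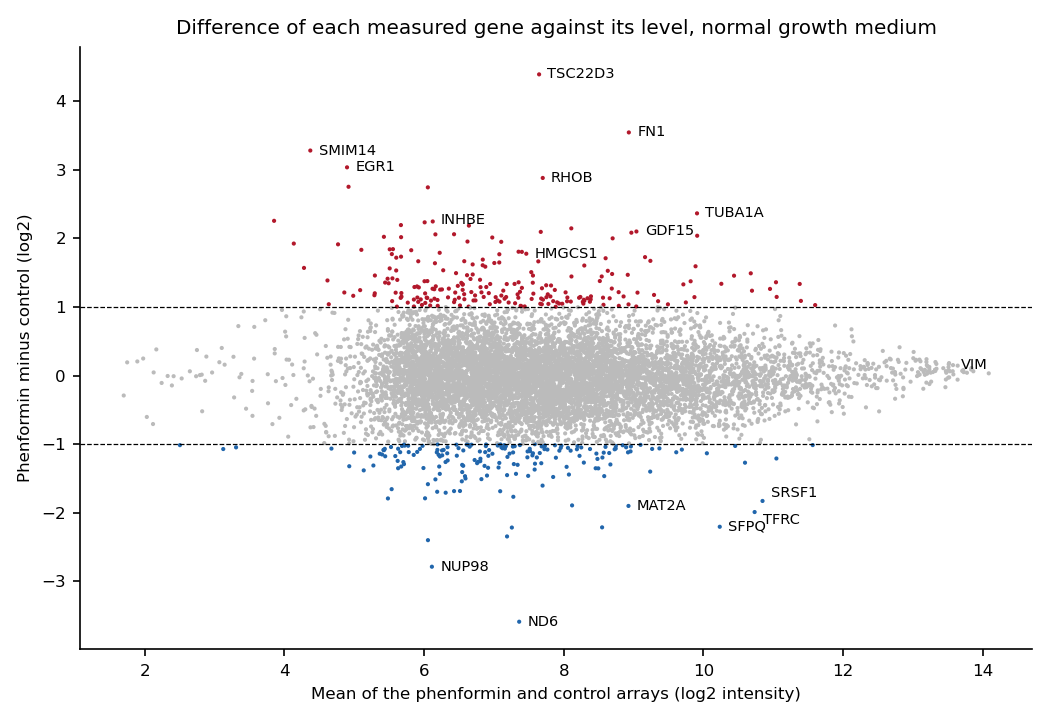
Log2 difference of the phenformin array minus the control array (y axis) against the mean of both arrays (x axis, log2 intensity) for the 8429 genes measured, each by its brightest probe set, 1 array per condition. Red points are the 224 genes at least 2-fold higher and blue points the 183 at least 2-fold lower, with dashed lines at 1 and −1, and TSC22D3 at the top and ND6 at the bottom lie far from the rest.

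The gene with the largest rise was TSC22D3, which encodes GILZ, a leucine zipper protein known as a glucocorticoid and FOXO target. Its level was 9.84 with phenformin, against 5.45 in control, which is 21-fold. FN1, the gene of the matrix glycoprotein fibronectin, followed with 10.70 with phenformin and 7.16 in control (11.7-fold). All 4 expressed FN1 probe sets were higher, by 3.51 to 3.80. EGR1, an immediate early zinc finger factor, stood at 6.42 with phenformin and 3.38 in control. For EGR1 the control array was the lowest of the series. The gene read 6.51 with versipelostatin, 6.32 with compound C and 6.04 in 2DG alone, so its rise was not particular to phenformin. RHOB, a small GTPase of endosomes and the actin cytoskeleton, read 9.14 with phenformin and 6.26 in control, with a difference of 1.12 on its other probe set. TUBA1A, an α-tubulin, read 11.09 with phenformin and 8.73 in control. These are signals far above the array median with phenformin, and all but EGR1 were already so in control.

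SLC2A3, the glucose transporter GLUT3, was at 9.18 with phenformin and 7.04 in control, and its 3 probe sets gave 1.84 to 2.26. ACSS2, which makes acetyl-CoA from acetate, was at 7.74 with phenformin and 5.55 in control. GDF15, a secreted factor released by stressed cells, read 10.09 with phenformin and 7.99 in control. INHBE, an inhibin β subunit, was at 7.25 with phenformin and 5.00 in control. CREBRF, a regulator of CREB3 factors, was higher on all 3 of its probe sets, by 1.49 to 2.51. On the brightest its control value, 4.57, was the lowest of the 8 arrays. That probe set read 6.77 with phenformin, 6.81 with versipelostatin, 5.68 with compound C and 7.09 in 2DG alone. PDE2A, a cyclic nucleotide phosphodiesterase, differed by 2.75, ACYP2, an acylphosphatase, by 2.74 and CEMIP, which takes part in hyaluronan breakdown, by 2.23. SMIM14 and TNFSF15, a cytokine of the TNF family, were not above background in control, meaning below the median of that array without its controls, and were higher by at least 2.85 and at least 1.82. These were the only 2 of the 224 higher genes with such a control value, and both stay above 2-fold with the bound.

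At the other end stood ND6, the complex I subunit that the mitochondrial genome encodes on its light strand. Its probe set read 5.57 with phenformin, against 9.16 in control, which is 12-fold lower. In no other condition did it reach the control value: its level was 5.78 with versipelostatin and 7.07 with compound C, 6.59 in 2DG with phenformin and 6.32 in 2DG alone, while adding versipelostatin to 2DG gave 7.99 and adding compound C 7.79. The control array was thus the highest of the 8 for ND6, and every difference from it shares that value. COX2, another gene of the mitochondrial genome and named after its values were seen, differed by 0.21 on its brightest and on its next brightest probe set.

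SRSF6, a splicing factor of the serine and arginine rich family, was at 7.44 with phenformin and 9.66 in control. SRSF1, of the same family, was at 9.93 with phenformin and 11.76 in control. The control array was the highest of the 8 for SRSF1, which read 10.71 with versipelostatin and 11.35 with compound C. SRSF1 was below control on all 5 of its probe sets, by −0.69 to −2.01, and SRSF6 differed by −1.70 on its other one. SFPQ, a nuclear RNA-binding protein of paraspeckles, was at 9.13 with phenformin and 11.33 in control, but its 4 probe sets ran from −2.20 to 1.28. On the brightest the control array was the highest of the 8, and SFPQ differed by −1.61 with versipelostatin and −1.44 with compound C. NUP98, a nucleoporin, had 4.72 with phenformin and 7.51 in control on its brightest probe set, while the other 2 differed by −0.23 and −0.03. NUP58, another nucleoporin, differed by −1.79, POLR3G, a subunit of RNA polymerase III, by −1.77, RBMXL1, an RNA-binding protein, by −1.71, and the non-coding transcript DLEU2 by −2.40. DLEU2 was highest on the control array, at 7.26, against 6.28 with compound C and lower values on the other arrays. SRSF1 and SRSF6 were thus below control on every probe set, whereas for NUP98 only the brightest was far from it.

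TFRC, the transferrin receptor that takes up iron, was at 9.74 with phenformin and 11.73 in control. Its other 2 probe sets gave −2.62 and −1.70. MAT2A, which makes S-adenosylmethionine, read 7.98 with phenformin and 9.88 in control, with −0.68 on its other probe set. TRIM25, a ubiquitin ligase of antiviral signalling, read 7.17 with phenformin and 9.07 in control, but its other probe set differed by 0.23. CD274, the immune checkpoint ligand PD-L1, had 4.59 with phenformin and 6.38 in control, and −0.52 on the other. SYNE1, a nuclear envelope spectrin, and DCLK1, a microtubule-linked kinase, differed by −2.34 and −2.21 on the brightest probe set and by 0.74 and −0.48 on the other. On the brightest, SYNE1 differed from control by −1.47 with versipelostatin and −2.98 with compound C. DCLK1 differed by −2.83 with versipelostatin and −2.82 with compound C. The control array was the highest of the 8 for SYNE1, DCLK1 and MAT2A. Among TFRC, MAT2A, TRIM25, CD274, SYNE1 and DCLK1, only TFRC was at least 2-fold lower on each of its probe sets.

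How far a second probe set of the same gene gave the same value was checked over 3492 genes with at least 2 expressed probe sets. The gap between the brightest and the next had a median of 0.187 and a 95th percentile of 0.881. Of 77 such genes higher on the brightest probe set, 46 were higher on both and 69 had the same sign. Of 73 lower on the brightest, 28 were lower on both and 60 had the same sign. Different probe sets can read different transcripts of a gene, and these counts describe 1 pair of hybridised samples.

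**Figure D2:**
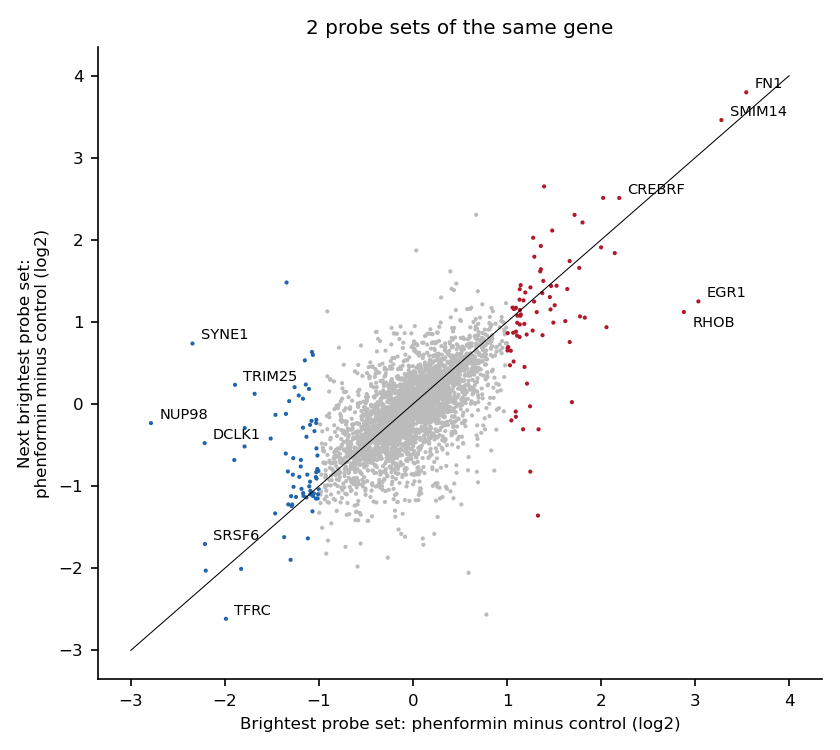
Log2 difference of phenformin minus control on the next brightest probe set (y axis) against that on the brightest (x axis) for 3492 genes with at least 2 expressed probe sets, with the line of equal values. Red and blue points are genes at least 2-fold higher or lower on the brightest probe set. FN1, SMIM14 and TFRC lie near the line, whereas NUP98, SYNE1 and TRIM25 lie far from it.

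The nuclear genes of the respiratory chain, the target of biguanides, stayed close to control. None of 37 genes for complex I subunits and assembly factors was 2-fold higher or lower. Their median was 0.06, which turns to −0.22 when scaled on the poly-A transcripts, and the values ran from −0.73 to 0.49, with 36 of the 37 less than 0.5 from control in size. None of 35 genes of complexes II to V was called either, with a median of 0.07 (−0.21 with that scaling) and values of −0.74 to 0.43. Among 20 genes of mitochondrial biogenesis and protein quality the median was −0.23 and none was called. In the TCA cycle list 2 of 27 genes were higher and none lower, with a median of 0.01 (−0.28 with that scaling). PCK2, mitochondrial phosphoenolpyruvate carboxykinase and also a known ATF4 target, had 8.08 with phenformin and 6.13 in control. SUCLG2, a subunit of succinyl-CoA ligase, had 9.54 with phenformin and 8.53 in control.

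Of 38 genes known as ATF4 targets, 11 were higher and none lower, and the median was 0.55, or 0.27 when scaled on the poly-A transcripts. Besides TSC22D3, INHBE and GDF15, the genes with the largest rise included ATF3, a stress-induced factor of the ATF family, at 7.19 with phenformin and 5.13 in control (0.94 on its other probe set). ATF3 was at 7.31 with versipelostatin and 7.59 with compound C, and its control value was the lowest of the 8 arrays. ASNS, which makes asparagine and is named after its value was seen, was at 10.93 with phenformin and 8.89 in control. NUPR1, a small chromatin protein of the stress response named in the same way, was at 5.73 with phenformin and 3.81 in control. DDIT3, the gene of CHOP, was at 7.53 with phenformin and 6.33 in control. PHGDH, which opens serine synthesis, was at 8.29 with phenformin and 6.83 in control. CBS, of the transsulfuration pathway, read 6.55 with phenformin and 5.49 in control. The other 27 targets of the list ran from −0.40 to 0.98.

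Genes that ATF4 is known to reach were not all called. CHAC1, a glutathione-degrading enzyme picked after its value was seen, was at 4.71 with phenformin and 4.97 in control. The pseudokinase TRIB3, picked likewise, was above control but short of 2-fold, at 9.50 with phenformin and 8.71 in control. Of 11 amino acid transporters none was called higher, and their median was 0.21, which turns negative with poly-A scaling. The largest value was 0.97, for SLC7A11, and 2 transporters that are not in the ATF4 list were lower. SLC7A6, an exchanger of cationic amino acids, was at 5.84 with phenformin and 7.34 in control, and SLC1A3, a glutamate and aspartate carrier, was at 4.44 with phenformin and 5.56 in control. No tRNA synthetase of 17 was called, with a median of 0.20 (−0.08 with poly-A scaling). Of 19 genes of serine, one-carbon and nucleotide synthesis, PHGDH alone was higher, CTPS1, which makes CTP, was lower at 7.53 with phenformin and 8.59 in control, and the median was −0.26.

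ASNS and CHAC1 are known ATF4 targets whose promoters hold the letters of an ATF4 composite element, TGATGNAA, yet their transcripts differed by 2.04 and −0.26. The element was searched on both strands of the 250 bases before each gene's start in RefSeq promoters (GRCh38.p14), where it was found in 3.14% of 35116 promoters. Counted by gene, it was found in 3.89% of 27305 genes and in 5 of the 30 ATF4 targets with a promoter in that table: ASNS, ATF3, CEBPG, CHAC1 and SLC1A5. The 2 sequences are given 5′ to 3′ along the gene's strand with the match in capitals. The ASNS promoter lies at chr7:97872409-97872658 on the minus strand, with the match 68 bases before the start, and the CHAC1 promoter at chr15:40953221-40953470 on the plus strand, with the match 209 bases before the start and read on the opposite strand. RefSeq gives ASNS 2 starts, and the matches show only that these letters are there.
ASNS: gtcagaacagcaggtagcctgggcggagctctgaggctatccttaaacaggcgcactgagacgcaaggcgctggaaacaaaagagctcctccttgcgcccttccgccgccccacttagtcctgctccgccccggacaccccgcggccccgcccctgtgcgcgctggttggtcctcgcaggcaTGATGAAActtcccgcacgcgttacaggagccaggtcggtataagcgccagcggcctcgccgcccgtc
CHAC1: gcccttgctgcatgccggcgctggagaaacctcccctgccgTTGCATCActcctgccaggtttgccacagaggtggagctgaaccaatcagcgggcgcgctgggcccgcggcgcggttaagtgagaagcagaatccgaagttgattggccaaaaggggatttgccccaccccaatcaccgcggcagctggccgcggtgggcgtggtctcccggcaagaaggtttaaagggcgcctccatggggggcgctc

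The ER chaperone genes that mark the UPR were mostly near their control level with phenformin alone. HSPA5, the gene of the ER chaperone GRP78, read 11.28 with phenformin and 11.19 in control, with a difference of 0.06 on its other probe set. HSP90B1, the gene of GRP94, read 10.32 with phenformin and 10.39 in control. Of 23 ER chaperones and folding enzymes, DNAJB9, a co-chaperone of GRP78, was higher at 7.60 with phenformin and 6.45 in control. SDF2L1, an ER protein of the stress response, was lower at 6.40 with phenformin and 7.74 in control. The list's median was −0.06, against 1.38 for 2DG minus control, a comparison that shares the control array. In 26 genes of ER-associated degradation and translocation the median was −0.11, and EDEM3, a mannosidase-like protein, was lower at 6.95 with phenformin and 8.23 in control.

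None of 10 UPR sensors and factors was called, with a median of 0.31 (0.03 with poly-A scaling). ATF4 mRNA was at 11.87 with phenformin and 11.48 in control. XBP1, whose mRNA IRE1 splices, was at 7.32 with phenformin and 6.91 in control. ATF6, the sensor cleaved in the Golgi, was at 7.62 with phenformin and 7.26 in control, with −0.0029 on its other probe set. ERN1, the gene of IRE1, differed by 0.42 on its brighter probe set and −0.36 on the other, and EIF2AK3, the gene of PERK, by 0.14. The kinases and phosphatases of eIF2α had a median of 0.06 over 10 genes (−0.23 with that scaling), with none called. mRNA levels do not show whether these proteins were phosphorylated, cleaved or spliced.

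The mRNAs of the energy sensor itself were not called either. Among 13 AMPK subunits and kinases none was 2-fold different, and the median was −0.03. PRKAA1, the catalytic subunit, had 5.62 with phenformin and 5.11 in control. STK11, the upstream kinase LKB1, had 5.82 with phenformin and 6.50 in control. Of 13 regulators of the growth kinase mTORC1 only DDIT4 was called: this inhibitor, also known as REDD1, was at 8.26 with phenformin and 6.45 in control. EIF4EBP1, the translation repressor that mTORC1 phosphorylates, differed by 0.24. The median of that list was 0.07 (−0.21 with poly-A scaling).

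Several sterol genes were higher. Of 17 genes of cholesterol synthesis and the factor SREBP2, 4 were higher and none lower, 16 lay above 0, and the median was 0.55 (0.26 with poly-A scaling). HMGCS1, which makes HMG-CoA, had 8.35 with phenformin and 6.58 in control, and 1.07 on its other probe set. MSMO1, a sterol oxidase, read 11.42 with phenformin and 9.93 in control. INSIG1, the sterol sensor that holds SREBP back, read 9.88 with phenformin and 8.70 in control, and its 3 probe sets gave 1.18 to 1.40. ACAT2, which makes acetoacetyl-CoA, was at 9.89 with phenformin and 8.81 in control. Side by side, the list's median was −0.76 with versipelostatin, 0.39 with compound C and −0.71 in 2DG, each minus the same control array. Among 13 genes of fatty acid synthesis only ACSS2 was called and the median was 0.24 (−0.04 with that scaling), and of 15 genes of fatty acid oxidation none was called, with a median of −0.03.

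Glycolysis genes were near control. Apart from SLC2A3, none of 21 genes of glycolysis and glucose uptake was called, and the median was −0.03. No gene of 6 in the pentose phosphate pathway was called. Of 8 genes of the glucose-sensing factor MondoA and its targets, ARRDC3, an arrestin relative, was higher at 7.60 with phenformin and 5.65 in control. HBP1, a repressor of the cell cycle, was also higher, at 7.83 with phenformin and 6.78 in control. MLXIP, the gene of MondoA itself, was lower at 5.77 with phenformin and 6.90 in control, and differed by −1.14 on its other probe set. The median of these 8 was −0.14.

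HIF-1 targets, genes of the response to low oxygen, included 4 of 18 that were higher and none that was lower, with a median of 0.47 (0.19 with poly-A scaling). Against the same control array the list's median was 0.27 with versipelostatin, 0.61 with compound C and 0.37 in 2DG. BHLHE40, a circadian and hypoxia-regulated repressor, stood at 9.70 with phenformin and 7.70 in control, and at 1.91 above control on its other probe set. NDRG1, a stress and hypoxia marker, read 10.68 with phenformin and 9.09 in control. MXI1, an antagonist of MYC, read 8.81 with phenformin and 7.74 in control. KDM3A, a histone demethylase, read 8.50 with phenformin and 7.46 in control. The list also holds BNIP3 and LOX, picked after their values were seen, at −0.11 and 0.12 from control.

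Genes of insulin signalling and FOXO factors had 5 of 16 higher and none lower, with a median of 0.35 (0.07 with poly-A scaling). Besides TSC22D3 they were CCNG2, IGFBP6, BCL6 and IRS1. The list's median was 0.47 with versipelostatin, 0.27 with compound C and 0.62 in 2DG, each minus the same control array. CCNG2, an atypical cyclin of quiescent cells, was at 8.30 with phenformin and 6.50 in control. IGFBP6, an IGF-binding protein, was at 8.48 with phenformin and 7.16 in control. The repressor BCL6 was at 7.43 with phenformin and 6.22 in control. The insulin receptor substrate IRS1, named after its value was seen, was at 7.74 with phenformin and 6.68 in control. CCNG2 was higher on all 3 of its probe sets, by 1.63 to 2.21, while the other BCL6 probe set differed by 0.25.

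The promoter of TSC22D3 is shown because this gene had the largest rise and is a known FOXO target. The core of the FOXO element, GTAAACA, was found on either strand in 2.98% of 35116 promoters of 250 bases and, counted by gene, in 3.66% of 27305 genes. It was found in 2 of the 15 genes of the FOXO list that have a promoter in the table, TSC22D3 and IGFBP6, which hold 29 promoters. Among the 15 genes with the largest rise it was found in 2 of 13 with a promoter, TSC22D3 and GDF15. The ATF4 composite element was found in 0 of these 13. The TSC22D3 promoter lies at chrX:107717063-107717312 (GRCh38.p14, RefSeq, minus strand), with the match in capitals 147 bases before the start and read on the opposite strand. The gene has 4 starts in that table, and the probe set does not tell which was used.
TSC22D3: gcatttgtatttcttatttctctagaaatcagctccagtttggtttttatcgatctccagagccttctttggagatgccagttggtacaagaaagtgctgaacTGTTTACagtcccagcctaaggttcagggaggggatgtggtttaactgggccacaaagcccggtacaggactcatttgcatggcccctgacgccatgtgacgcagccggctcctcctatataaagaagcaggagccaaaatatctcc

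Of 15 G1 cyclins and CDK inhibitors 3 were higher, all of them inhibitors. CDKN1A (p21) was at 9.10 with phenformin and 7.49 in control. CDKN2D (p19) was at 6.03 with phenformin and 4.57 in control. CDKN1B (p27) was at 8.64 with phenformin and 7.56 in control. In the same list CCNE2, a cyclin E, was lower at 6.32 with phenformin and 7.43 in control, and CCND3, a cyclin D named after its value was seen, differed by −1.02. Of 22 p53 targets 6 were higher and none lower, 21 lay above 0, and the median was 0.62 (0.34 with poly-A scaling). The p53 median was 0.47 with versipelostatin, 0.39 with compound C and 0.09 in 2DG, against the same control array. GADD45A, a growth arrest and DNA damage gene, stood at 10.93 with phenformin and 9.59 in control. CCNG1, cyclin G1, was at 11.58 with phenformin and 10.32 in control. TP53INP1, a stress-induced cofactor of p53, was at 6.78 with phenformin and 5.52 in control. No gene of 12 in the BCL2 family was called.

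Part of the DNA replication genes were lower. Of 37, 7 were lower and none higher, 34 lay below 0, and the median was −0.61. MCM10, an initiation factor of replication, was at 7.85 with phenformin and 9.31 in control. POLE2, a subunit of DNA polymerase ε, was at 6.11 with phenformin and 7.34 in control. MCM3, of the replicative helicase, was at 7.90 with phenformin and 9.04 in control. The same list had medians of −0.97 with versipelostatin, −0.54 with compound C and −0.75 in 2DG against the same control array. Of 30 mitosis genes 28 lay below 0 with a median of −0.36, but only PLK1, a mitotic kinase, was lower, at 5.01 with phenformin and 6.05 in control, and 21 of the 30 were less than 0.5 from control. The mitosis median was −0.26 with versipelostatin, −0.56 with compound C and −1.09 in 2DG, against the same control array. Of 9 histone genes H2AX, a variant that marks DNA breaks when phosphorylated, was lower at 9.15 with phenformin and 10.23 in control.

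Ribosome biogenesis genes lay mostly just under control, 27 of 31 below 0 with a median of −0.54, and 2 of them were lower. NOP16, a nucleolar protein, was at 9.94 with phenformin and 10.97 in control. POLR1C, a subunit of RNA polymerases I and III, was at 7.22 with phenformin and 8.24 in control. Their medians with the other treatments were −0.09 with versipelostatin, −0.01 with compound C and −0.05 in 2DG, against the same control array. The proteins of the ribosome itself hardly differed: 30 of 30 transcripts were less than 0.5 from control, between −0.03 and 0.23, with a median of 0.09 (−0.19 with poly-A scaling). The plot of the lists sets these groups side by side.

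**Figure D3:**
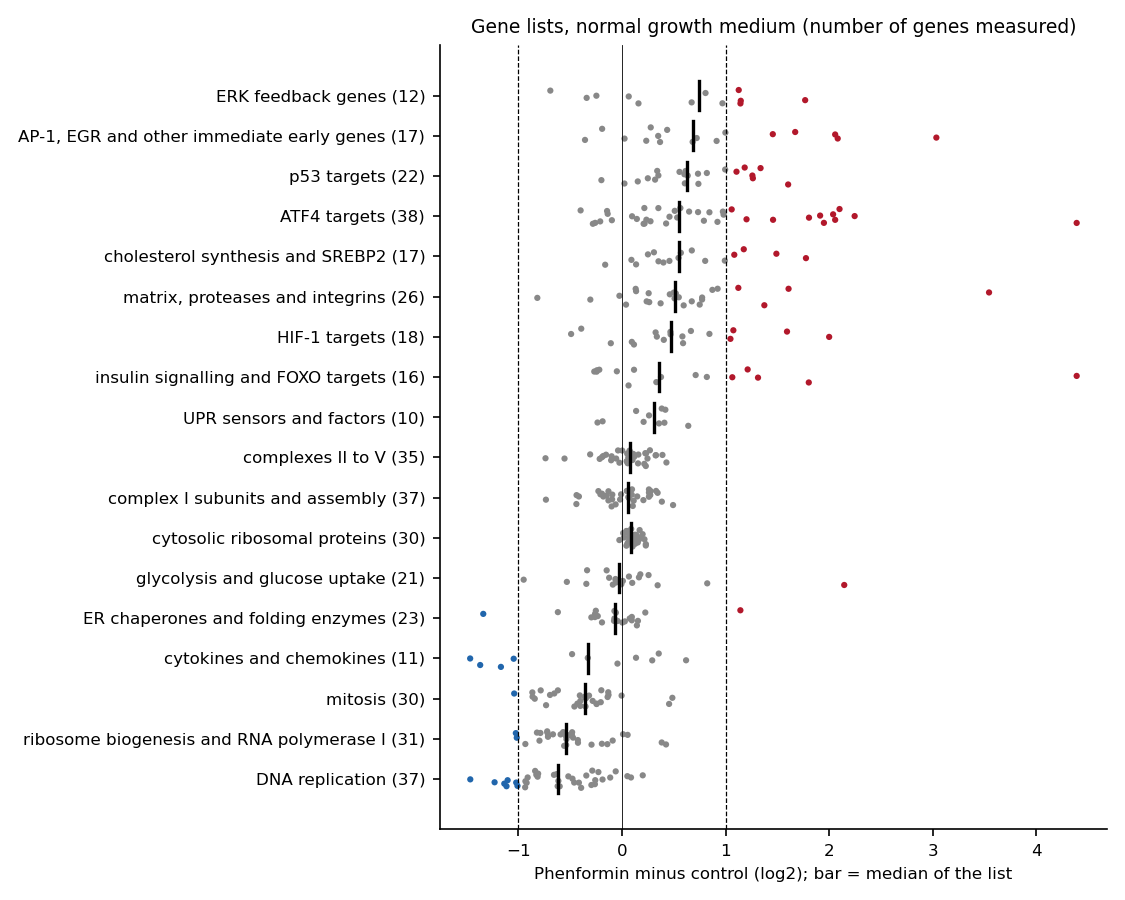
Log2 difference of phenformin minus control (x axis) for each measured gene of 18 lists (rows, number of genes in brackets), 1 array per condition, with a bar at the median of the list and dashed lines at 2-fold. Red genes are at least 2-fold higher and blue ones at least 2-fold lower, and the medians run from 0.74 for ERK feedback genes to −0.61 for DNA replication.

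Immediate early genes, the transcription factors that growth signals switch on within minutes, had 5 of 17 higher and none lower and a median of 0.68 (0.40 with poly-A scaling). The same list had medians of 0.29 with versipelostatin, 0.71 with compound C and 0.17 in 2DG, against the same control array. KLF2, a zinc finger factor induced by flow and statins in endothelium, was at 10.01 with phenformin and 7.93 in control. JUND, an AP-1 subunit, stood at 10.08 with phenformin and 8.40 in control. EGR1 was higher by 3.04 on its brightest probe set and by 1.25 and 1.52 on the others. On the brightest, EGR1 differed from the same control array by 3.13 with versipelostatin and 2.94 with compound C. Feedback genes of the ERK pathway had 4 of 12 higher and a median of 0.74 (0.46 with that scaling), and 3 lay below 0. That list's median was 0.65 with versipelostatin, 0.19 with compound C and 0.36 in 2DG, against the same control array. The phosphatase DUSP4 was at 7.96 with phenformin and 6.19 in control. DUSP1, of the same family, was at 9.22 with phenformin, 9.42 with versipelostatin, 10.54 with compound C and 8.09 in control. PHLDA1 was at 11.62 with phenformin and 10.47 in control, and its 6 probe sets gave 0.40 to 1.42. The fourth, the inhibitor SPRY2, was at 10.44 with phenformin and 9.30 in control.

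Some cytokine genes were lower. Of 11, 4 were lower and none higher, with a median of −0.33. CXCL8, the neutrophil attractant interleukin-8, was at 6.90 with phenformin and 8.27 in control, and its other probe set differed by −1.62. CXCL3, a related chemokine, read 5.85 with phenformin and 7.32 in control. IL11, a cytokine of the IL-6 family, read 7.64 with phenformin and 8.81 in control, but 0.07 on its other probe set. CCL20 was not above background with phenformin, at 2.79 against 3.83 in control, and with that bound its difference was −0.67 or lower, which is short of 2-fold. It is 1 of 3 among the 183 lower genes with a phenformin value of that kind, and none of the 3 reaches 2-fold with the bound. Of 8 interferon-induced genes IRF9, a subunit of the interferon-activated factor ISGF3, was higher at 6.98 with phenformin and 5.34 in control, and the median was 0.09 (−0.19 with poly-A scaling).

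Some matrix genes were higher, led by FN1. Of 26 genes for matrix proteins, proteases and integrins 4 were higher and none lower, 23 lay above 0, and the median was 0.51 (0.23 with poly-A scaling). MMP9, a gelatinase, was at 7.64 with phenformin and 6.04 in control. COL6A3, a chain of collagen VI, was at 10.50 with phenformin and 9.13 in control. COL6A1, another chain, was at 8.24 with phenformin and 7.12 in control. In the list of YAP and SRF targets ACTA2, smooth muscle actin, had 7.98 with phenformin and 5.97 in control. CCN1, a secreted matrix-linked protein, had 11.72 with phenformin and 10.36 in control. The median of the 15 genes of that list was 0.10 (−0.18 with that scaling). Of 11 BMP targets none was called, and SMAD1 and SMAD5, which carry BMP signals, differed by 0.17 and −0.24.

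FN1 is one of the genes whose promoter is long known to carry a cyclic AMP response element, TGACGTCA, to which ATF and CREB factors bind, and it had the largest rise after TSC22D3. That element was found in 1.65% of the 35116 promoters and, counted by gene, in 2.03% of 27305 genes. Among the 15 genes with the largest rise it was found in 1 of 13 with a promoter, FN1. The promoter lies at chr2:215436069-215436318 (GRCh38.p14, RefSeq, minus strand), with the match in capitals 183 bases before the start. The match reads the same on both strands and describes the sequence only.
FN1: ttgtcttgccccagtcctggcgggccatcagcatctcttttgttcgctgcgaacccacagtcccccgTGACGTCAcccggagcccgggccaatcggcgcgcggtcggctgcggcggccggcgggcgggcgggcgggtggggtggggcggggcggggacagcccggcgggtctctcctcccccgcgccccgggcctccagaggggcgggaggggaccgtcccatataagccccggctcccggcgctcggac

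Of 7 genes of iron uptake and storage only TFRC was called, and the median was −0.03. Of 15 in polyamine and methionine metabolism 2 were higher and 2 lower, with a median of −0.13. SAT1, which acetylates polyamines, was higher at 8.81 with phenformin and 7.66 in control, as was CBS. AMD1, which makes the aminopropyl donor of polyamine synthesis, was lower at 7.55 with phenformin and 8.65 in control, as was MAT2A. Of 24 NRF2 targets and glutathione genes AKR1C3, an aldo-keto reductase, was higher at 5.16 with phenformin and 4.12 in control, with a median of 0.27 (−0.01 with poly-A scaling). Of 22 genes of autophagy and lysosomes WIPI1, an early autophagy protein, was higher at 7.35 with phenformin and 5.88 in control. GLA, a lysosomal galactosidase, was lower at 6.59 with phenformin and 7.60 in control. None of 12 cytosolic heat shock genes was called, with a median of −0.24.

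Versipelostatin and compound C in the same medium show where the phenformin array stood apart among the 4 in normal medium. The rule for this, phenformin at least 2-fold above or below each of the other 3 arrays, was set after values were seen. It held for 39 genes above (0.463% of those measured) and 16 below (0.19%). FN1 stood at 10.70 with phenformin, 8.42 with versipelostatin, 6.66 with compound C and 7.16 in control. RHOB had 9.14 with phenformin, 6.23 with versipelostatin, 7.68 with compound C and 6.26 in control. TUBA1A had 11.09 with phenformin, 8.83 with versipelostatin, 9.81 with compound C and 8.73 in control. KLF2 had 10.01 with phenformin, 7.85 with versipelostatin, 8.29 with compound C and 7.93 in control. ACTA2 had 7.98 with phenformin, 6.84 with versipelostatin, 6.62 with compound C and 5.97 in control. In each of these genes the phenformin array was the highest of the 4 by at least 2-fold on the brightest probe set. The other RHOB probe set, at 4.48 with phenformin and 3.92 with compound C, falls short of the rule.

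TMSB4X, a thymosin that binds actin monomers, was another of the 39, at 8.72 with phenformin and 6.62 in control. KRT15, a keratin of basal epithelium, was at 7.46 with phenformin and 5.40 in control. SFN, the 14-3-3σ protein induced by p53, was at 9.43 with phenformin and 7.95 in control. Of the sterol genes HMGCS1 and MSMO1 met the rule, while INSIG1 and ACAT2 did not. HMGCS1 was at 8.35 with phenformin, 5.48 with versipelostatin, 7.18 with compound C and 6.58 in control, but its other probe set, at 8.85 with phenformin and 8.15 with compound C, falls short of the rule. MSMO1 was at 11.42 with phenformin, 9.50 with versipelostatin, 10.29 with compound C and 9.93 in control. TFRC, POLR3G, CXCL3 and CXCL8 were among those below all the others. TFRC was at 9.74 with phenformin, 11.45 with versipelostatin, 11.73 with compound C and 11.73 in control. POLR3G was at 6.40 with phenformin, 8.15 with versipelostatin, 8.05 with compound C and 8.16 in control. The chemokine CXCL3 was at 5.85 with phenformin, 10.06 with versipelostatin, 8.39 with compound C and 7.32 in control. CXCL8 was at 6.90 with phenformin, 8.40 with versipelostatin, 9.15 with compound C and 8.27 in control. EIF5, a factor of translation initiation, was at 9.96 with phenformin and 11.23 in control. TFRC and POLR3G were level on the other 3 arrays, whereas CXCL3 spread widely over them.

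In other genes phenformin lay between control and the other compounds. INHBE had 7.25 with phenformin, 8.89 with versipelostatin, 8.30 with compound C and 5.00 in control. GDF15 had 10.09 with phenformin, 11.71 with versipelostatin, 11.06 with compound C and 7.99 in control. ASNS had 10.93 with phenformin, 11.73 with versipelostatin, 11.39 with compound C and 8.89 in control. DDIT4 had 8.26 with phenformin, 10.73 with versipelostatin, 10.01 with compound C and 6.45 in control. The median of the ATF4 targets was 0.55 with phenformin, against 1.30 with versipelostatin, 1.28 with compound C and 1.17 in 2DG, all minus the same control array. The doses differ between the compounds, and no such difference was tested. The plot of levels on these arrays shows both kinds of gene.

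**Figure D4:**
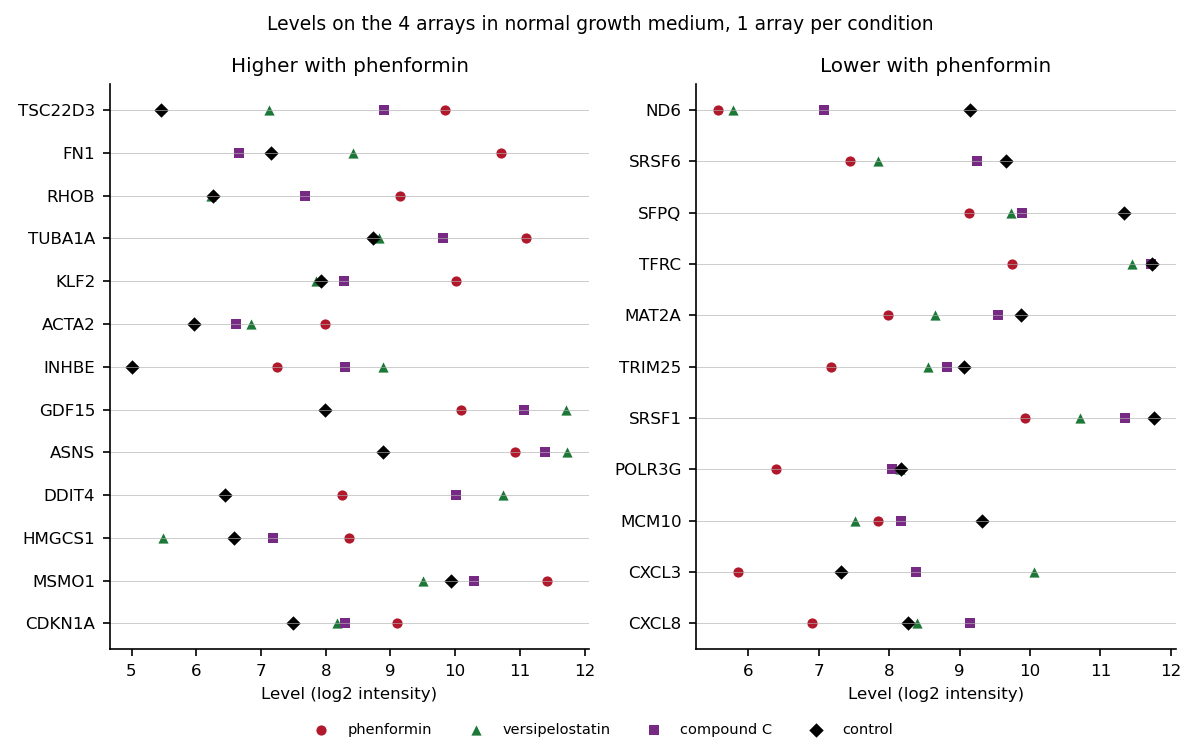
Level (x axis, log2 intensity) of 13 genes higher (left) and 11 genes lower (right) with phenformin on the arrays with phenformin (circles), versipelostatin (triangles), compound C (squares) and no compound (diamonds) in normal medium, 1 array per condition. FN1, KLF2 and TFRC have the phenformin array away from the other 3, and in INHBE, GDF15 and DDIT4 it lies between the control array and the others.

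The same dose of phenformin was also given in medium with 2DG, and that pair of arrays shares none with the pair above. There 1140 probe sets were higher with phenformin than in 2DG alone (7.35%) and 3130 lower (20.2%), with a median of −0.19, and by gene 408 were higher (4.84%) and 1836 lower (21.8%). The poly-A transcripts read 0.31 higher in 2DG with phenformin than in 2DG alone, and the part of that in these counts was not tested. Of the 426 probe sets higher in normal medium, 94 were higher in 2DG too (22.1% of them, and 8.25% of the list in 2DG), 123 were lower there and 209 were neither. Of the 479 lower ones, 159 were lower in 2DG too (33.2%, and 5.08% of the list in 2DG), 41 were higher and 279 neither. Over all 15503 probe sets the differences in the 2 media had a Pearson correlation of 0.08 and a Spearman correlation of 0.05, a description across probe sets that are not independent, on arrays that were normalized together.

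Several sterol and early genes had the same direction in both media. HMGCS1 was at 9.28 in 2DG with phenformin and 4.95 in 2DG alone, a difference of 4.32 on that probe set and 0.94 on its other. MSMO1 was at 10.49 in 2DG with phenformin and 9.17 in 2DG alone. EGR1 stood at 11.34 in 2DG with phenformin and 6.04 in 2DG alone. ATF3 was at 10.26 in 2DG with phenformin and 6.36 in 2DG alone. SPRY2 was higher by 3.32 in 2DG, DUSP1 by 3.16, GADD45A by 3.09 and CCN1 by 2.65. FN1 was higher there by 1.09, and MAT2A and SRSF1 differed by −2.61 and −1.29. For the ERK feedback list the medians were 0.74 in normal medium and 1.27 in 2DG, where 7 of 12 genes were higher and 4 lower. The lower ones were DUSP4 (−1.48) and, named after their values were seen, ETV5 (−1.66), SPRED2 (−1.40) and SPRED1 (−1.23). For the sterol list they were 0.55 in normal medium and 0.49 in 2DG.

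As a list, ATF4 targets had opposite directions. Their median was 0.55 in normal medium, with 11 of 38 higher and none lower, against −1.30 for phenformin in 2DG, with 1 higher and 20 lower. INHBE had 4.07 in 2DG with phenformin and 7.94 in 2DG alone. DDIT4 had 5.54 in 2DG with phenformin and 8.65 in 2DG alone. ASNS had 9.28 in 2DG with phenformin and 11.37 in 2DG alone. In 2DG alone these genes already stood 2.94, 2.20 and 2.48 above the control array. TSC22D3 and GDF15 differed by 0.25 and 0.53 in 2DG. Cytokines had the reverse order, with a median of −0.33 in normal medium and 1.04 in 2DG, and CXCL8 was at 10.54 in 2DG with phenformin and 7.41 in 2DG alone. TFRC was at 11.92 in 2DG with phenformin and 10.31 in 2DG alone.

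**Figure D5:**
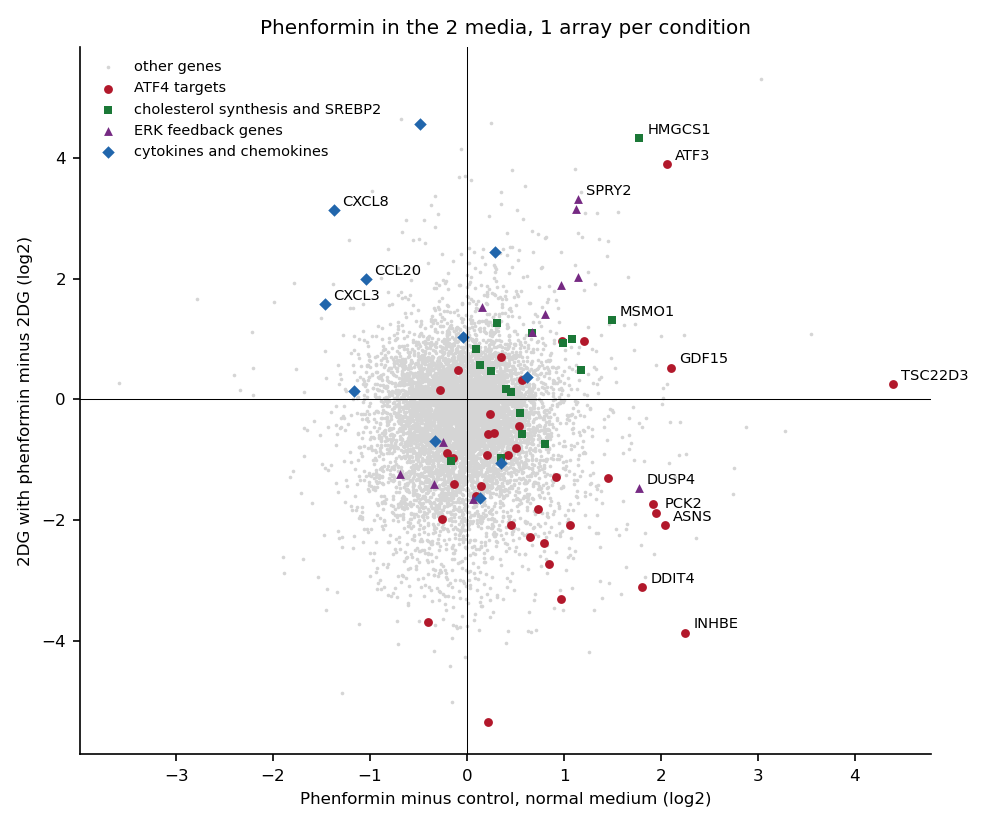
Log2 difference of 2DG with phenformin minus 2DG alone (y axis) against phenformin minus control in normal medium (x axis) for the 8429 genes measured, 1 array per condition, with 4 gene lists marked. HMGCS1 and ATF3 lie high in both media, INHBE and DDIT4 lie at the lower right, and CXCL8 and CXCL3 at the upper left.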

How the data were processed

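Total RNA of HT1080 cells from 8 conditions, 1 sample each, was labelled from 100 ng and hybridised, 1 array per sample. The deposited values are log2 intensities, which per the labels the authors made with RMA (background correction, normalization between arrays, summary of each probe set), with software not given in the sources used here. The values got no further normalization. Without the control probe sets, those kept reached log2 6 on at least 1 array. Symbols came from the platform annotation, brought to RefSeq names (GRCh38.p14) by Entrez ID: 41097 probe sets had 1 symbol, 1801 several and 11777 none, and only those with 1 name a gene. A gene is given by its kept probe set with the highest mean over the 8 arrays. The 224 higher and 183 lower genes are called on that probe set. A value below its array's median without controls counts as not above background.

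Differences were called from 2-fold, with no test, since each side has 1 array and the number of arrays limits the precision. Genes named are the 15 farthest from control on either side, up to 4 called genes of each of 45 lists, and those the study names, and others are marked where they appear. The members, lists and rules were chosen with earlier results of these data known. The calculation was run on simulated data with placed differences, which checks the counting only and not the error of the calls made here. Alternatives were other folds, limits, scalings and probe sets. Python 3.11.15, numpy 2.4.6, pandas 2.3.3 and matplotlib 3.10.9 were used.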

Additional observations from a re-analysis of the deposited data

Results flagged for a closer look

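For 26 named genes phenformin went at least 2-fold one way in normal medium and at least 2-fold the other way in 2DG. They were 19 of 57 named genes higher in normal medium (33.3%) and 7 of 35 named genes lower there (20.0%). Over all genes measured the same was seen for 82 of 224 higher ones (36.6%) and 16 of 183 lower ones (8.74%), and 21.8% of all genes were lower in 2DG with phenformin. Each direction rests on 1 pair of arrays, the difference between the media was not tested, and 2DG itself had moved several of these genes, so that their starting levels differ.

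Of these genes 19 were higher in normal medium and lower in 2DG. The ATF4 targets INHBE, DDIT4, PCK2, PHGDH and CBS gave −3.87, −3.11, −1.88, −1.30 and −2.09 in 2DG, where phenformin was set against 2DG alone. The cell cycle inhibitors CDKN1B and CDKN1A gave −3.14 and −1.69. The p53 cofactor TP53INP1 gave −4.18, or −3.50 or lower with its value not above background in 2DG with phenformin. In the autophagy gene WIPI1 the value was −3.05, in the reductase AKR1C3 −2.62, in the repressor HBP1 −2.47 and in the collagen COL6A3 −2.44. TUBA1A gave −2.30, the interferon factor IRF9 −2.14, ACYP2 −1.56, the phosphatase DUSP4 −1.48, SLC2A3 −1.29, PDE2A −1.14 and KLF2 −1.05.

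The other 7 were lower in normal medium and higher in 2DG. They were the chemokines CXCL8 (3.13), CXCL3 (1.58) and CCL20 (2.00, or at least 1.80, as its value in 2DG alone was not above background), the nucleoporins NUP58 (1.94) and NUP98 (1.66), the transferrin receptor TFRC (1.61) and the kinase DCLK1 (1.12).

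Of the 26 genes 9 had another expressed probe set, and on the next brightest of these 7 had opposite signs in the 2 media as well. On it TFRC gave −2.62 in normal medium and 1.77 in 2DG, and CXCL8 gave −1.62 in normal medium and 3.23 in 2DG. WIPI1 gave 1.15 in normal medium and −3.06 in 2DG, and DUSP4 1.66 in normal medium and −4.03 in 2DG. NUP98 and DCLK1 had opposite signs but were short of 2-fold in both media. NUP98 gave −0.23 in normal medium and 0.16 in 2DG, and DCLK1 −0.48 in normal medium and 0.41 in 2DG. SLC2A3 gave 1.84 in normal medium and 2.28 in 2DG, and NUP58 −0.29 in normal medium and −0.0067 in 2DG.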

How the results depend on the processing

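No paired analysis was possible because each condition has 1 array and the labels give no replicate numbers. The count of probe sets higher with phenformin was 426 and of those lower 479. It was 1432 higher and 1948 lower from 1.5-fold, and 100 higher and 65 lower from 3-fold. With no expression limit 670 were higher, and with a limit of log2 7 there were 312 lower. Scaling on the poly-A transcripts gave 193 higher and 1259 lower. Without probe sets that may match several transcripts 236 were higher. Counted as genes, there were 224 higher and 183 lower by the brightest probe set, and 212 and 173 by the median over probe sets. Centring each array, quantile normalization, a limit of log2 5 and a limit on these 2 arrays alone moved both counts by less than 1.5 times. The share of higher probe sets that were higher in 2DG, 22.1%, was 15% from 3-fold. The share of lower ones that were lower in 2DG, 33.2%, was 41.2% from 1.5-fold, 16.9% from 3-fold, 27.5% with each array centred and 38.4% with poly-A scaling. Of 92 named genes called, 88 stayed past 2-fold with each array centred, 89 after quantile normalization, 73 with poly-A scaling and 82 by the median over probe sets. On the next brightest probe set 25 of 39 did, and the sign turned for SYNE1 (0.74), TRIM25 (0.23) and IL11 (0.065). Signal over background limits the values of SMIM14, TNFSF15 and CCL20, which are bounds.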

Other observations

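Families with several members among the called genes were looked at after their values had been seen, and so they are a description only. Of 9 SRSF splicing factors 3 were lower and 8 lay below 0, with a median of −0.63. The SRSF median was −0.68 with versipelostatin, −0.40 with compound C and −0.31 in 2DG, against the same control array. Besides SRSF6 and SRSF1, SRSF7 was at 10.44 with phenformin and 11.65 in control. SRSF7 read 10.68 with versipelostatin, 10.47 with compound C and 10.07 in 2DG alone, and its other probe sets differed from control by −0.89 and −0.03 with phenformin. In the FASTKD family, mitochondrial RNA-binding proteins, all 4 measured members lay below 0 and 2 were lower. Their median was −1.13 with phenformin, −0.85 with versipelostatin, −0.43 with compound C and −0.52 in 2DG, against the same control array. FASTKD5, known for its part in processing mitochondrial transcripts, was at 6.25 with phenformin and 7.93 in control, and FASTKD1 at 7.11 with phenformin and 8.59 in control. In 2DG FASTKD5 differed by 0.12 and FASTKD1 by −2.25.

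Of 9 KLF factors 4 were higher and none lower, with a median of 0.51: beside KLF2 these were KLF6, at 11.17 with phenformin and 9.71 in control, KLF7, at 8.04 with phenformin and 6.76 in control, and KLF13, at 6.49 with phenformin and 5.46 in control. The KLF median was 0.16 with versipelostatin, 0.93 with compound C and 0.60 in 2DG, against the same control array. With compound C 4 of the 9 were higher as well. Of 10 HLA genes 2 of class II were higher. HLA-DRA was at 6.46 with phenformin and 4.74 in control, and HLA-DMA at 6.61 with phenformin and 5.48 in control. The other class II genes were not called: HLA-DPA1 differed by 0.89, HLA-DRB1 by 0.70 and HLA-DPB1 by −0.32. The class I genes HLA-B and HLA-C both differed by 0.28.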
